A study of Mus musculus with 1047 samples.

Results

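The cells described here are the astrocytes of a droplet data set of brain cells from aged wild-type mice. Astrocytes were chosen by a rule on measured values. A cell had to have at least 500 genes detected and at least 1 UMI (a unique molecular identifier, which counts 1 captured mRNA molecule) of at least 5 of the 8 genes Cldn10, Gja1, Slc1a2, Gpr37l1, Ntsr2, Slc7a10, F3 and Htra1. It also had to show fewer than 3 of the 5 oligodendrocyte progenitor genes Pdgfra, C1ql1, Lhfpl3, Neu4 and Matn4, and fewer than 30 UMIs per 10000 of the microglial genes P2ry12, Cx3cr1 and Trem2 together. In all, 3783 cells met the rule, which is 18.5% of the 20495 cells with 500 or more genes and part of the 21197 barcodes in the table. Because these genes selected the cells, their levels and every contrast of astrocytes with the rest are given as description, with no test.

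The study compared microglia and other brain cells of white and grey matter, by plate-based sequencing and by 10x droplets. The droplet libraries used here are titled WT and were made from pooled C57BL/6J males aged 24 months, with 3 libraries of grey matter (frontal cortex, pools of 4, 3 and 3 mice) and 2 of white matter (optic tract, medial lemniscus and corpus callosum, pools of 4 and 3 mice). For 1 of the 2 white matter libraries, that of batch 3, the genotype field reads ApoeKO while the title reads WT and the strain C57BL/6J. It is counted here as its title says. Per the labels, tissue was dissociated with a papain kit in the presence of actinomycin D, a transcription blocker, and myelin was removed with beads, with no cell sort named for the droplet libraries.

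Each cell name in the table ends in 1 of 5 suffixes, 1_1_1, 1_1_2, 1_2_1, 1_2_2 and 1_3, called barcode endings here. There are as many endings as wild-type libraries, but no label ties an ending to a library, so it is not known which ending is grey or white matter. The endings therefore belong to no group, and each ending's value is given without an average, a spread or a test. Levels are UMIs of a gene per 10000 UMIs of all genes, summed over the astrocytes of an ending. Intervals are exact 95% Poisson intervals for levels and exact Clopper-Pearson intervals for shares, and they cover counting error only. Among all 21197 barcodes, 41 sequences occurred under 2 endings, and for 2 of these both cells were astrocytes.

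Astrocytes are the glia that take up glutamate and GABA released at synapses, buffer potassium and water, supply neurons with lactate, glutamine and cholesterol, and cover blood vessels with their endfeet. They are coupled to one another by gap junctions of connexins. Astrocytes of grey matter are classically called protoplasmic and those of white matter fibrous, and fibrous cells are known for more of the filament protein GFAP. When tissue is injured or ages, astrocytes can become reactive, with more GFAP, vimentin, complement and serpin transcripts. Ependymal cells, the ciliated cells that line the ventricles, share several transcripts with astrocytes, Gja1 and Aqp4 among them.

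RefSeq promoters are shown for Gfap and Slc7a10, an astrocyte gene that was highest and one that was lowest in the same barcode ending (1_2_2). Each is 300 bases on GRCm38.p6, from 250 bases before to 50 after the annotated start, printed 5′ to 3′ on the gene's strand, with capitals for a TTCNNNGAA match.
Gfap (chr11:102897151-102897450, minus strand): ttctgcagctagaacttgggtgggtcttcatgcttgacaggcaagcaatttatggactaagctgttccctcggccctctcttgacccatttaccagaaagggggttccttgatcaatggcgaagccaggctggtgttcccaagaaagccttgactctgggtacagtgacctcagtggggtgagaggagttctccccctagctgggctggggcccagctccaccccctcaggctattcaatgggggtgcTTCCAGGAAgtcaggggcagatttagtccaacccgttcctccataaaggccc
Slc7a10 (chr7:35186135-35186434, plus strand): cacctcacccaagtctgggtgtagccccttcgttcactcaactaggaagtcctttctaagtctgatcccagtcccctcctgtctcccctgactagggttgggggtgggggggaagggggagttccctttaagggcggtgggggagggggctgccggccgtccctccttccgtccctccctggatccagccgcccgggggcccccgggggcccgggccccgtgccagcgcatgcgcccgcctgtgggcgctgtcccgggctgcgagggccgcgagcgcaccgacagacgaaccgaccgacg
Both strands were searched for TTCNNNGAA, the letters of a STAT site, and for TTGGCA, the letters of 1 side of a nuclear factor I site. The Gfap promoter holds 1 TTCNNNGAA match, at bases 249 to 257 of the printed run, and the Slc7a10 promoter none, while 8.30% of 32851 mouse promoters of this length hold it. Neither promoter holds TTGGCA, which 14.1% of the promoters do. A match is a description of the letters and not a binding site. In the GENCODE annotation of the same build both genes are protein coding, Gfap on chromosome 11 from 102887336 to 102900912 and Slc7a10 on chromosome 7 from 35186385 to 35201114.

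The share of astrocytes among cells with 500 or more genes differed between the barcode endings by more than the counting error. It was 26.0% (24.3 to 27.8) in 1_1_1, 25.4% (24.1 to 26.7) in 1_1_2 and 29.4% (28.2 to 30.6) in 1_3, against 5.11% (4.44 to 5.84) in 1_2_1 and 5.19% (4.54 to 5.90) in 1_2_2. In cells these are 614, 1074, 1672, 203 and 220 astrocytes in the same order. The interval of 1_2_1 overlapped only that of 1_2_2, and that of 1_1_1 overlapped only that of 1_1_2. The shares moved with the rule: that of 1_2_2 was 7.95% with at least 4 of the 8 genes and 2.90% with at least 6, and that of 1_2_1 6.49% and 3.52%. Without cells holding 3 or more markers of another type it was 12.3% (11.0 to 13.7) in 1_1_1, 16.8% (15.7 to 17.9) in 1_1_2, 18.2% (17.2 to 19.2) in 1_3, 2.01% in 1_2_1 and 1.82% in 1_2_2, so that 1_1_1 no longer overlapped 1_1_2. Median depth of astrocytes was 8229, 5302, 8212, 10117 and 7131 UMIs in 1_1_1, 1_1_2, 1_2_1, 1_2_2 and 1_3. The share of cells with 30 or more microglial UMIs per 10000 was between 49.7% and 61.1% in every ending, so the endings' microglial shares did not follow their astrocyte shares. No sort was named, so a share is a share of the cells that survived dissociation and bead removal.

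**Figure D1:**
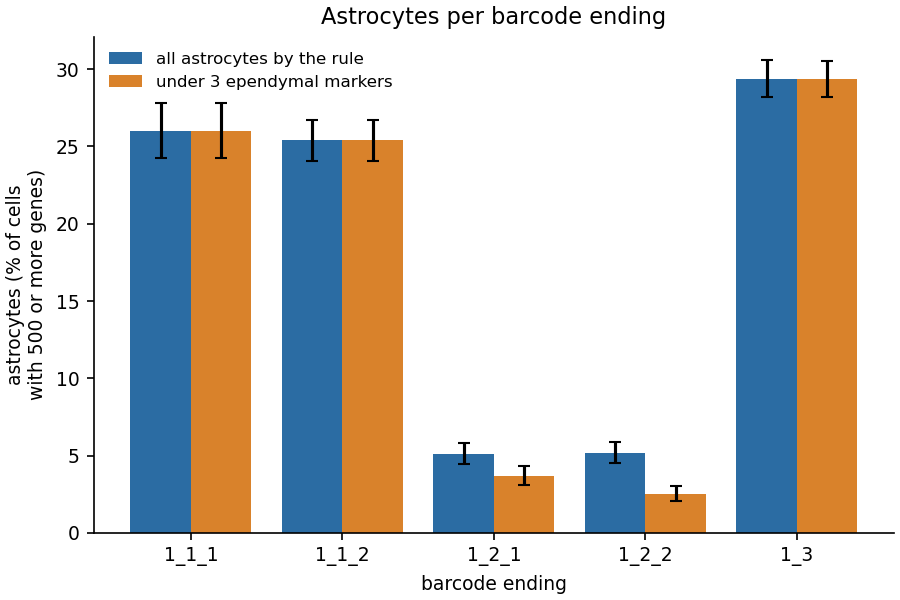
Share of astrocytes among cells with 500 or more genes, by barcode ending, with 95% Clopper-Pearson intervals. Blue bars count all astrocytes by the rule and orange bars those with fewer than 3 of 8 ependymal markers; endings 1_2_1 and 1_2_2 lie near 5% in blue and at 3.67% and 2.50% in orange.

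The 8 genes of the rule were detected together in most of the cells. All 8 had a UMI in 72.8% of astrocytes, and by ending in 80.8% (1_1_1), 75.4% (1_1_2), 50.2% (1_2_1), 17.7% (1_2_2) and 78.2% (1_3). Summed over all astrocytes, Slc1a2, the main glutamate transporter of the forebrain, was at 67.2 UMIs per 10000 and had a UMI in 99.6% of them. Gja1, which encodes the gap junction protein connexin 43, was at 16.2, and the neurotensin receptor gene Ntsr2 at 9.78. The claudin gene Cldn10 was at 9.45, Htra1, a secreted serine protease, at 14.8, and Slc7a10, a transporter of small neutral amino acids such as D-serine, at 4.95. UMIs of these genes were found in other cells as well. In microglial cells, those with 30 or more microglial UMIs per 10000, Slc1a2 was at 2.63 with a UMI in 38.6% of cells, and Slc7a10 at 0.117 with a UMI in 4.59%. These microglial cells include 305 that met the rule but for the microglial limit, with Slc1a2 at 38.0.

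At the edges of the rule the cells were mixed. The 401 cells just inside with 5 of the 8 genes had Slc1a2 at 10.7 and the ependymal gene Tmem212 at 13.9 UMIs per 10000. The 509 cells just outside with 4 of 8 had Slc1a2 at 9.65, Tmem212 at 9.25 and Ttr, a choroid plexus transcript, at 38.4. Cells with all 8 genes had Slc1a2 at 84.6 and Tmem212 at 0.129. The 28 cells just inside the microglial limit, at 20 to 30 UMIs per 10000, had Slc1a2 at 47.9, and the 38 cells just outside, at 30 to 40, had Slc1a2 at 55.7. The 12 cells with 2 progenitor genes had Slc1a2 at 73.5, Aqp4 at 38.5 and Gfap at 32.2.

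The label was checked against markers of other cell types, and it did not hold for one set of cells. Of the 3783 cells, 172 had a UMI of 3 or more of 8 ependymal markers: 57 of 203 in 1_2_1 (28.1%), 114 of 220 in 1_2_2 (51.8%), 1 in 1_3 and none in 1_1_1 or 1_1_2. The number of these markers per cell had few middle values. It was 0 in 2648 cells, 1 in 904, 2 in 59, 3 to 5 in 15 and 6 to 8 in 157. Those 157 cells had a median of 5 of the 8 rule genes. Their level of Slc1a2 was 3.39 UMIs per 10000 against 77.4 in cells with none of the markers, that of Ntsr2 0.181 against 11.4, and that of Gja1 3.27 against 18.4. Tmem212 was at 23.4 and the chemoattractant gene Rarres2 at 29.4 in them. The 15 cells with 3 to 5 markers were unlike these: Slc1a2 was at 40.0, Ntsr2 at 9.16 and Gfap at 31.8. Cells with 3 or more ependymal markers are called ependymal-marker cells below. Leaving them out changes no value in 1_1_1 or 1_1_2 and takes 1 cell from 1_3, so levels over all members are given beside those without them for 1_2_1 and 1_2_2. Without them 3611 cells remained, with 614, 1074, 146, 106 and 1671 in the 5 endings, and the share of astrocytes was 3.67% (3.11 to 4.31) in 1_2_1 and 2.50% (2.05 to 3.02) in 1_2_2, whose intervals did not overlap.

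**Figure D2:**
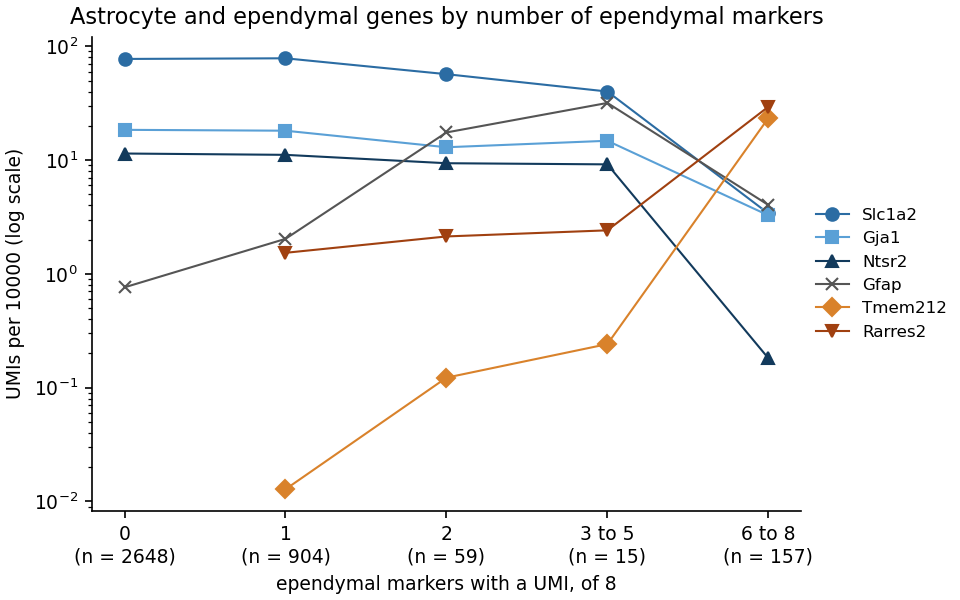
Summed levels of astrocyte genes (Slc1a2, Gja1, Ntsr2), Gfap and ependymal genes (Tmem212, Rarres2) in astrocytes, by how many of 8 ependymal markers had a UMI; the vertical axis is a log scale and levels of 0 are not drawn. Slc1a2 was at 77.4 in cells with no marker and at 3.39 in the 157 cells with 6 to 8.

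RNA of further cell types was present in the astrocytes. At least 3 of 8 microglial markers had a UMI in 1481 cells (39.1%), at a summed level of 8.10 UMIs per 10000 against 255 in all other cells. At least 3 markers were found in 129 cells for endothelium, 154 for choroid plexus, 75 for mural cells, 35 for neurons, 2 for neutrophils and 1 for oligodendrocytes. At least 3 of the 4 hemoglobin genes were found in 609 cells, and their summed level was between 24.1 (1_2_1) and 158 (1_1_2). Without ependymal-marker cells it was 60.4 in 1_2_1 and 191 in 1_2_2, then the highest ending. Few cells held most of it: without those cells, 5 cells per ending had between 56.5% (1_1_2) and 99.6% (1_2_2) of the Hbb-bs UMIs. Over all members, choroid plexus markers summed to 28.4 and 26.7 in 1_2_1 and 1_2_2 and to at most 0.940 in the other 3 endings. Without ependymal-marker cells they summed to 15.9 in 1_2_1 and 20.9 in 1_2_2. Of the UMIs of the choroid plexus transcript Ttr then left, 1 cell held 1419 of 1562 in 1_2_1 and 1 cell 1010 of 1234 in 1_2_2. Over all members, endothelial markers summed to 13.7 in 1_3 and 10.4 in 1_1_1, and to 0.0793 in 1_2_2. No doublet caller was run, and cells with 3 or more markers of any of 10 other types, 1589 of 3783, were kept. The part of such RNA in the gene levels was not tested beyond leaving these cells out.

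Against all other cells of the table, astrocytes were set apart by the transport, junction and lipid genes for which the cell type is known. Of 16199 genes with at least 50 UMIs in either set, 2043 were at least 4-fold higher in astrocytes (12.6%) and 1801 at least 4-fold lower (11.1%). Within each of the 5 endings, 949 genes were at least 4-fold higher. The median ratio over all genes tested was 1.06. With ependymal-marker cells counted among the other cells, 1563 genes were higher and 2444 lower. With them in neither set, the list counts below were the same except for the lipid, A1, A2 and interferon lists. Of all cells with 500 or more genes, 54.2% were microglial by the limit of the rule, so the ratios largely set astrocytes against microglia. Lists that hold rule genes or genes known to mark astrocytes had to be high, so their counts describe the cells that the rule found.

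Of 10 genes for the uptake of transmitters 9 were at least 4-fold higher, with a median ratio of 17.8. Slc1a3, the second glial glutamate transporter, was at 31.5 UMIs per 10000 in astrocytes and 2.23 in other cells, and was between 6.77 and 15.1-fold higher within endings. Glul, the glutamine synthetase gene, was at 31.7 against 5.43. The GABA transporter gene Slc6a11 was at 3.22, with a ratio of 36.0. Slc7a11, the cystine-glutamate exchanger, was at 3.47 with a ratio of 21.6. The exception was the glutamine carrier gene Slc38a1, with 1.85 against 1.13. It was at 10.0 in the ependymal-marker cells and at 0.531 without them.

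Among genes of potassium, water and junctions, 13 of 14 were at least 4-fold higher, with a median ratio of 20.0. Slc4a4, a bicarbonate cotransporter, was at 10.8 with a ratio of 28.5, and Atp1b2 was at 10.4 with a ratio of 20.4. Aqp4, the water channel of endfeet, was at 8.48 with a ratio of 23.6.

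Of 19 receptor genes, 14 were at least 4-fold higher and 1, the TGF-beta receptor gene Tgfbr2, at least 4-fold lower (ratio 0.183). Gpr37l1, a receptor used by the rule, was at 17.6. S1pr1, a sphingosine phosphate receptor, was at 12.7 with a ratio of 11.3, the neurotrophin receptor gene Ntrk2 at 9.71 with 15.7, and the fibroblast growth factor receptor gene Fgfr3 at 3.87 with 29.0. Grm5, a glutamate receptor described in young astrocytes, was at 0.0259 against 0.0397.

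For lipid and cholesterol genes the count was 21 of 24 with a median ratio of 10.8. Apoe, the lipid carrier of the brain, had the most UMIs of all genes after Malat1, at 143 UMIs per 10000 against 106 in other cells. Its pooled ratio was thus 1.35, but within endings the ratio was between 0.798 and 8.68. In other cells the lipid list, Apoe included, summed to 203 in 1_2_1 and 224 in 1_2_2 and to at most 36.4 elsewhere. Clu, another lipid-binding chaperone, was at 35.9 with a ratio of 13.6, and the acyl-CoA ligase gene Acsl3 at 17.4 with 30.3. The desaturase gene Scd2 was at 13.4 with a ratio of 10.3, and Dbi, which binds acyl-CoA, at 32.3 with 4.10. Dbi was at 145 in the ependymal-marker cells, and without them at 14.1 with a pooled ratio of 1.78, so that 20 of the 24 genes passed. Pooled ratios mix the endings: within endings, over all members, Dbi was between 5.51 and 11.0-fold higher, each above the pooled 4.10.

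Energy genes were split, with 8 of 15 at least 4-fold higher. Aldoc, the aldolase of astrocytes, was at 32.7 with a ratio of 27.4, and the creatine kinase gene Ckb at 39.1 with 5.36. The lactate dehydrogenase genes did not pass, with Ldhb at 8.15 against 5.23 and Ldha, chosen after its value was seen, at 1.59 against 1.82. Metal and redox genes had 6 of 13, among them the metallothionein genes Mt1 (59.9 against 6.90), Mt3 (39.1 against 4.05) and Prdx6 (17.3 against 1.63). Synapse and matrix genes had 13 of 20, with the matricellular gene Sparcl1 at 33.1 and a ratio of 11.7, the phagocytic bridge gene Mfge8 at 16.5 and 23.9, and Ptprz1, a matrix receptor phosphatase, at 15.5 and 22.3. The protease inhibitor gene Cst3 was abundant on both sides, at 127 against 249.

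Of 20 transcription factor genes 15 passed, of 29 secreted signals tested 16, and of 14 clock genes 8. Sox9, which specifies astrocytes, was at 9.32 with a ratio of 14.9, and Sox2 at 6.39 with 20.0. Pleiotrophin (Ptn) was the most abundant secreted signal of the list, at 28.4 with a ratio of 10.5, and the chemokine gene Cxcl14 was at 7.64 with 17.1. All 9 genes of the protoplasmic list and all 5 tested genes of the telencephalic list, Lhx2 included, were at least 4-fold higher.

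The lists for reactive states stood lower than the lists above, but not all stood below the genes tested as a whole. Of 13 pan-reactive genes 3 were at least 4-fold higher, Gfap (2.01 against 0.276), Serpina3n and Aspg, the last of which was chosen after its value was seen. Of 13 genes of the A1 list 2 were higher and 5 lower, of 11 A2 genes tested 2 and 2, of 11 interferon genes none in either direction, and of 15 immediate early genes none higher and 2 lower. All of these counts are read beside the 12.6% and 11.1% of all genes. Median ratios were 1.73 for the pan-reactive, 1.11 for the A2, 0.671 for the A1, 0.676 for the interferon and 0.772 for the immediate early list. Over all genes tested the median was 1.06. Without ependymal-marker cells the list medians were 1.31, 0.840, 0.368, 0.411 and 0.584 in the same order. The MHC gene H2-D1 was at 1.56 against 10.8, and the interferon gene Ifitm3 at 3.52 against 3.45. Without ependymal-marker cells Ifitm3 was at 1.42, C4b of the A1 list (ratio 4.11) and Cd109 of the A2 list (4.90) no longer passed, with ratios of 3.43 and 0.877, and the interferon gene Bst2 was more than 4-fold lower (0.158).

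**Figure D3:**
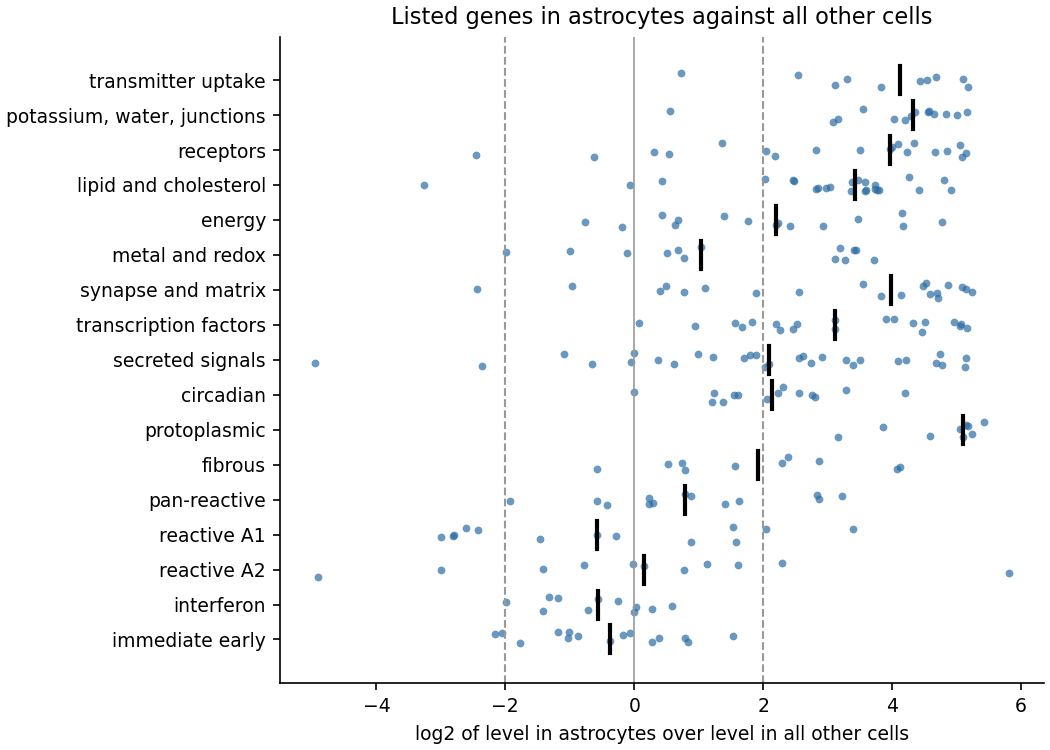
Ratio of the level in astrocytes to the level in all other cells (log2) for the genes of 17 lists with at least 50 UMIs in either set. Each point is a gene, black bars are list medians and dashed lines mark 4-fold; the medians of the transport, junction, receptor and protoplasmic lists lie right of the right line and those of the A1, interferon and immediate early lists left of 0.

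The genes with the largest ratios to other cells, outside the rule, were mostly rare transcripts. Kirrel2, a cell adhesion gene, was 52.6-fold higher at 0.361 UMIs per 10000, the matrix link protein gene Hapln1 48.5-fold at 1.54, Slitrk2, a synaptic adhesion gene, 47.6-fold at 2.25, AI464131 47.6-fold at 1.65, the Wnt pathway ligand gene Ndp 47.3-fold at 0.619 and Lgr6 44.5-fold at 0.371. Trim29, Ptx3, Htr6 and Nphs1os had ratios of 44.7 to 78.7 from only 52 to 93 UMIs each. Of these, Ptx3 was uneven: without the ependymal-marker cells it had 61 UMIs in 29 cells, 22 of them in 1 cell.

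The cell types most like astrocytes were few in this table. By the marker rules used for them there were 23 oligodendrocyte progenitors (14 in 1_2_1 and 9 in 1_2_2), 3 oligodendrocytes and 578 ependymal cells (384 in 1_2_2, 182 in 1_2_1, 8 in 1_3 and 4 in 1_1_2). The 3 oligodendrocytes are too few to compare. Against progenitors, Slc1a2 was at 67.2 and 4.46 UMIs per 10000 in turn, Aqp4 at 8.48 and 0.358, and Apoe at 143 and 49.7, while Ptprz1 was lower in astrocytes (15.5 and 50.6) and Pdgfra was 0.0265 and 11.9. Against ependymal cells, Aldoc was at 32.7 and 1.63 and Glul at 31.7 and 2.31. Gfap was at 2.01 and 2.03, and Vim, the intermediate filament gene vimentin, at 4.82 and 11.4. Without ependymal-marker cells astrocytes had Gfap at 1.51 and Vim at 1.91, and without ending 1_2_2 they had 1.03 and 2.66. Astrocytes of 1_2_1 and 1_2_2 lay in the same endings as nearly all ependymal cells and progenitors.

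Between barcode endings, the largest differences over all members were those of cilia genes. With the ependymal-marker cells left out, Gfap and several other fibrous and reactive genes were far higher in 1_2_2 than elsewhere, though their ranges were mostly not the widest. Over all members, 12448 genes had at least 100 UMIs, and in 6157 of these (49.5%) the highest ending was at least 2-fold over the lowest. The median of this ratio was 1.98. Without ependymal-marker cells it was 4213 of 11549 genes (36.5%), and 2985 genes were counted both times. Ending 1_2_2 was the highest in 2457 and the lowest in 2274 of the 6157 genes, and the highest in 1749 and the lowest in 1427 of the 4213. A 2-fold range between endings was thus common, and counts of list members are read beside these shares. In all members the widest range was that of Tmem212, with no UMI in 1_1_1, 1_1_2 and 1_3, 13.8 UMIs per 10000 in 1_2_1 and 18.2 in 1_2_2. The cilia genes Ccdc153, Fam183b, Ak7, Rsph1, Dynlrb2, Hydin and Dnah12 came next, each with its highest level in 1_2_2. Without ependymal-marker cells the widest ranges were those of Ngp, Camp, C3, Mki67 and S100a9, each also highest in 1_2_2. There the UMIs of Ngp and Camp came from 1 cell and those of Mki67 from 2 cells, while C3 was found in 24 of 106 cells.

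Gfap, the filament gene of astrocytes, was highest in 1_2_2. Its level was 0.585 UMIs per 10000 in 1_1_1, 0.437 in 1_1_2, 3.50 in 1_2_1, 10.1 in 1_2_2 and 1.00 in 1_3. Without ependymal-marker cells it was 2.81 in 1_2_1 and 29.1 in 1_2_2, which is 66.6 times the lowest ending. Ending 1_2_2 was thus the highest with or without those cells, and 1_2_1 came next. In 1_2_2 the 1772 UMIs came from 85 of 106 cells, and the cell with the most held 6.09% of them. In 1_2_1 the 281 UMIs came from 54 of 146 cells, with 26.7% in 1 cell and 52.7% in 5 cells. With ending 1_2_2 left out, the level over all astrocytes was 1.03 in place of 2.01 and the range 8.01-fold in place of 23.2-fold.

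Slc7a10 was lowest in 1_2_2. Its level was 6.39 in 1_1_1, 5.84 in 1_1_2, 2.16 in 1_2_1, 0.281 in 1_2_2 and 5.67 in 1_3. Without ependymal-marker cells it was 5.23 in 1_2_1 and 1.08 in 1_2_2, so that only 1_2_2 stood clearly below the others. The same held for Mfge8, at 22.4, 19.1, 6.59, 1.29 and 18.7 in the order 1_1_1, 1_1_2, 1_2_1, 1_2_2 and 1_3, and at 15.9 in 1_2_1 and 5.80 in 1_2_2 without those cells.

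Other genes of the rule drew together once the ependymal-marker cells were left out. Slc1a2 was at 68.2, 80.6, 23.2, 15.6 and 81.9 over all members and at 52.2 in 1_2_1 and 61.3 in 1_2_2 without them. Ntsr2 was at 11.6, 11.6, 5.04, 2.53 and 10.9, and at 11.9 and 11.3 without them, a range of only 1.08-fold. For the 8 genes, 8 had a 2-fold range over all members and 3 without ependymal-marker cells, namely Slc7a10, F3 and Htra1. These genes chose the cells, so their range is a description.

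Lists of astrocyte subtypes differed in the same way. The 10 fibrous genes summed to 13.4 UMIs per 10000 in 1_1_1, 9.51 in 1_1_2, 49.9 in 1_2_1, 72.0 in 1_2_2 and 13.3 in 1_3, and to 20.7 in 1_2_1 and 109 in 1_2_2 without ependymal-marker cells. S100a6, a calcium-binding protein of fibrous astrocytes, was at 1.76 in 1_1_1, 1.48 in 1_1_2, 2.37 in 1_2_1, 35.2 in 1_2_2 and 1.25 in 1_3 without those cells, and over all members at 8.68 in 1_2_1 and 19.3 in 1_2_2. Vim was at 1.41, 0.737, 3.19, 24.8 and 1.50 in the same order and without the same cells, and over all members at 15.9 and 22.6 in 1_2_1 and 1_2_2. For both, 1_2_2 was the highest either way. Id3 changed its order with the cells counted: without ependymal-marker cells it ranged from 3.80 in 1_1_2 to 8.05 in 1_2_2, while over all members it was lowest in 1_2_2, at 2.14, and at 2.73 in 1_2_1. Nnat was at 3.30 in 1_2_1 and 2.84 in 1_2_2 without those cells and at 16.7 and 14.9 with them, and Fbxo2 ranged 1.77-fold and 1.84-fold. In all other cells of the table the 10 fibrous genes were also highest in 1_2_2, with a sum of 11.5 against 5.82 to 8.55 elsewhere.

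The 9 protoplasmic genes summed to 47.0 in 1_1_1, 42.8 in 1_1_2, 16.0 in 1_2_1, 5.70 in 1_2_2 and 42.5 in 1_3, and to 35.0 in 1_2_1 and 15.3 in 1_2_2 without ependymal-marker cells. Grm3, a metabotropic glutamate receptor, was at 2.43, 2.52, 1.13, 0.427 and 2.79 without those cells and Btbd17 at 5.70, 4.68, 4.71, 1.38 and 5.75. Over all members they were at 0.472 and 1.98 in 1_2_1 and at 0.104 and 0.323 in 1_2_2, so both were lowest in 1_2_2 either way. The GABA transporter gene Slc6a11 ranged 1.39-fold without those cells, from 3.01 in 1_2_2 to 4.17 in 1_1_2, and 4.77-fold over all members, with 0.876 in 1_2_2. Of this list 7 of 9 genes had a 2-fold range, of the fibrous list 9 of 10, both without ependymal-marker cells and beside 36.5% of all genes.

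**Figure D4:**
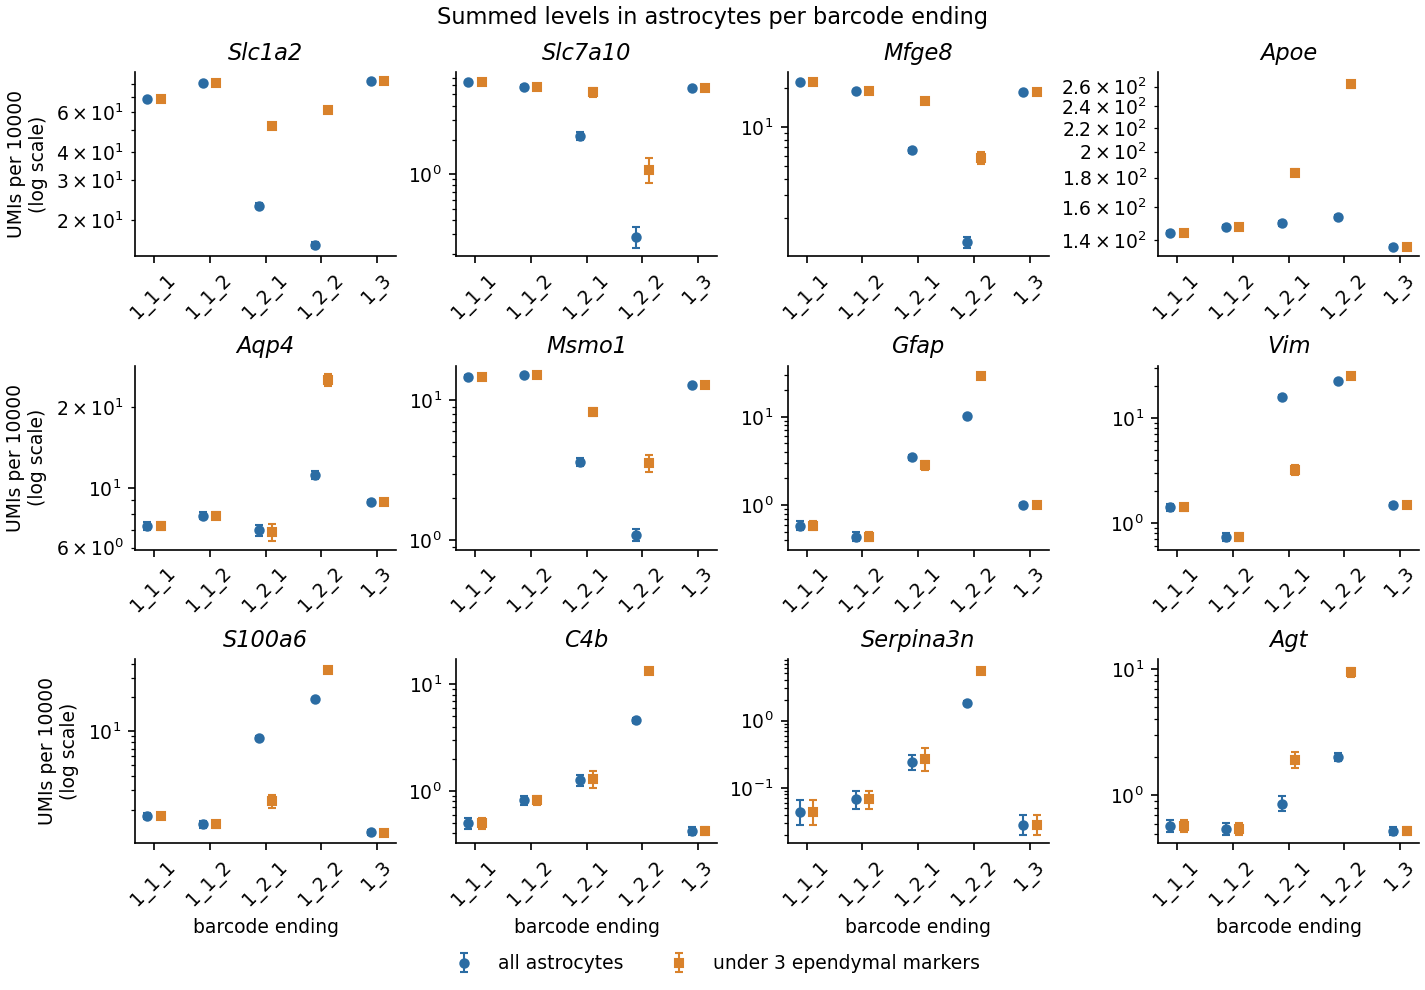
Summed levels of 12 genes in the astrocytes of each barcode ending, on log scales, with 95% Poisson intervals. Blue points are all astrocytes and orange squares those with fewer than 3 ependymal markers; in orange, Gfap was at 29.1 in 1_2_2 and at most 2.81 elsewhere, and Slc7a10 at 1.08 in 1_2_2 and at least 5.23 elsewhere.

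Most reactive genes were likewise highest in 1_2_2. The 13 pan-reactive genes summed to 3.32 in 1_1_1, 1.91 in 1_1_2, 22.8 in 1_2_1, 41.4 in 1_2_2 and 4.15 in 1_3, and to 7.91 in 1_2_1 and 76.4 in 1_2_2 without ependymal-marker cells. Serpina3n, a secreted protease inhibitor, was at 0.0444, 0.0677, 0.270, 5.47 and 0.0285 without those cells, a range of 192-fold, and 57 of the 106 cells of 1_2_2 had a UMI. Over all members it was at 0.242 in 1_2_1 and 1.82 in 1_2_2. The complement gene C4b was at 0.496, 0.814, 1.28, 13.3 and 0.422 without those cells, found in 93 of the 106 cells, and over all members at 1.25 in 1_2_1 and 4.57 in 1_2_2. Without ependymal-marker cells all 12 pan-reactive, all 13 A1 and all 11 interferon genes tested had a 2-fold range, beside 36.5% of all genes. All 12 pan-reactive and all 11 interferon genes were highest in 1_2_2, but of the A1 genes 10 were, with Fkbp5 (0.329) and Amigo2 (0.173) highest in 1_1_2 and Srgn in 1_2_1. Ifitm3 was at 5.96 in 1_2_2 against 1.23 to 1.39 elsewhere, and over all members at 16.4 in 1_2_2 and 8.23 in 1_2_1. The interferon list summed to 17.4 in 1_2_2 and to 4.67 to 5.97 elsewhere without ependymal-marker cells. In all other cells of the table it was also highest in 1_2_2, at 17.7 against 7.87 to 11.7 elsewhere. The pan-reactive list was not: in other cells it was highest in 1_1_1, at 6.71, with 6.22 in 1_2_2. Each astrocyte value without ependymal-marker cells is a sum over 106 cells in 1_2_2, and several rest on few of them. The neutrophil genes Camp and Ngp came from 1 cell of 1_2_2, which also gave 99.9% of the UMIs of S100a9 there. For the cell cycle gene Mki67 all 128 UMIs of 1_2_2 came from 2 cells, and for Lcn2 1 cell gave 86.5%.

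Homeostatic endfoot and lipid carrier genes were also highest in 1_2_2. Without ependymal-marker cells Aqp4 was at 7.23, 7.90, 6.83, 25.2 and 8.89, Apoe at 144, 148, 184, 262 and 136, and Clu at 37.1, 28.5, 42.0, 92.2 and 35.3 in 1_1_1, 1_1_2, 1_2_1, 1_2_2 and 1_3. Agt, angiotensinogen, a gene described for astrocytes outside the telencephalon, was at 0.575, 0.545, 1.90, 9.41 and 0.527. Over all members 1_2_2 was still the highest but by less, with Aqp4 at 11.1, Apoe at 154, Clu at 46.0 and Agt at 2.02. The range over all members was 1.13-fold for Apoe, 1.60-fold for Aqp4, 1.61-fold for Clu and 3.83-fold for Agt.

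Cholesterol synthesis genes, chosen here after their values were seen, went the other way. Without ependymal-marker cells Msmo1 was at 14.8, 15.1, 8.27, 3.55 and 12.9, and Idi1 at 3.75, 2.87, 2.46, 0.591 and 3.07. Hmgcs1, which opens the pathway, was at 5.29, 3.68, 3.71, 1.28 and 4.15, and Insig1, a regulator of the pathway, at 4.67, 4.19, 2.74, 1.05 and 3.17. All 4 were lowest in 1_2_2, and over all members too, with Msmo1 at 1.09, Idi1 at 0.189, Hmgcs1 at 0.632 and Insig1 at 0.293 there. Of the transcription factors, Sox9 ranged 1.36-fold and Zbtb20 1.16-fold without ependymal-marker cells and 1.39-fold and 1.72-fold over all members. The telencephalic factor Lhx2 was at 4.33, 4.27, 3.35, 1.71 and 4.56 without those cells, and over all members at 1.59 in 1_2_1 and 0.723 in 1_2_2. Leaving out every cell with 3 or more markers of any other type left 1_2_2 apart, with Gfap at 32.6 and Slc7a10 at 1.45 in the 77 cells left in 1_2_2.

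The share of cells with Gfap was also highest in 1_2_2. To set endings of different depth beside one another, each astrocyte was thinned to 2200 UMIs, which left out 378 shallower cells. A Gfap UMI was then found in 7.55% (5.50 to 10.1) of 556 cells of 1_1_1, 8.49% (6.77 to 10.5) of 919 in 1_1_2, 30.1% (23.3 to 37.5) of 173 in 1_2_1, 58.0% (50.8 to 64.9) of 200 in 1_2_2 and 10.7% (9.23 to 12.4) of 1557 in 1_3. Without ependymal-marker cells the shares were 23.3% (15.9 to 32.0) of 116 in 1_2_1 and 77.9% (67.7 to 86.1) of 86 in 1_2_2. Unthinned, Gfap was found in 22.1%, 15.5%, 49.8%, 84.5% and 25.0% of all astrocytes in the same order of endings. In 2000 microglial cells thinned to the same depth the share was 1.95% over all endings. By ending, with 218 to 526 cells each, it was 0.459% (0.0116 to 2.53) in 1_1_1, 0.442% (0.0535 to 1.59) in 1_1_2, 2.88% (1.50 to 4.98) in 1_2_1, 5.68% (3.60 to 8.48) in 1_2_2 and 0.380% (0.0461 to 1.37) in 1_3. Microglial cells thus also had Gfap most often in 1_2_2, and in each ending their interval lay below that of the astrocytes. The astrocyte interval of 1_2_2 did not overlap that of any other ending, and those of 1_1_1, 1_1_2 and 1_3 overlapped one another.

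**Figure D5:**
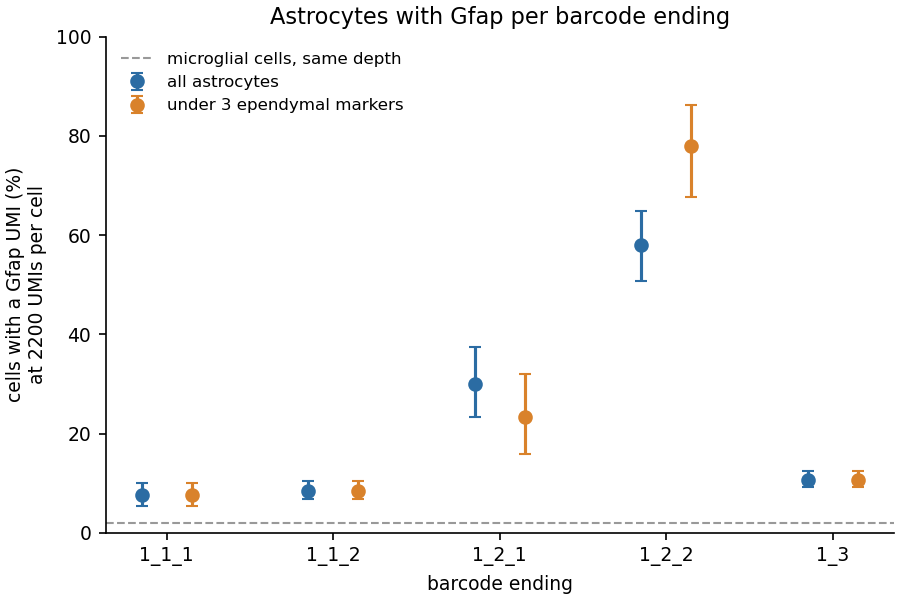
Share of astrocytes with a Gfap UMI after thinning each cell to 2200 UMIs, by barcode ending, with 95% Clopper-Pearson intervals. Blue points are all astrocytes, orange points those with fewer than 3 ependymal markers, and the dashed line is the share in microglial cells thinned alike, pooled over the endings; the orange point of 1_2_2 lies at 77.9% and that of 1_1_1 at 7.55%.

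Within endings, fibrous genes were higher in cells with Gfap than in cells without it. Without ependymal-marker cells the fibrous genes other than Gfap summed to 24.2 UMIs per 10000 in thinned cells with Gfap against 10.6 in those without it in 1_1_1, 15.2 against 8.75 in 1_1_2, 32.8 against 12.8 in 1_2_1, 86.2 against 16.3 in 1_2_2 and 23.8 against 9.36 in 1_3. The gap was there in all 5 endings and widest in 1_2_2. For protoplasmic genes the sums were 51.5 against 49.4, 45.4 against 47.1, 37.0 against 41.8, 12.3 against 35.7 and 43.4 against 47.9, so that only 1_2_2 had a wide gap, with 67 cells with and 19 without Gfap. The ranking of ratios pooled over endings left out rarer genes. It was led by Myoc, a secreted protein of superficial astrocytes (2.42 against 0.0159), and the protease inhibitor genes A2m (1.72 against 0.0335) and Serpina3n (1.37 against 0.0351). The cytokine receptor gene Osmr (0.775 against 0.0701) and Slc38a1 (2.47 against 0.226) came next. Osmr was higher in cells with Gfap in 5 of 5 endings and the other 4 genes in 4 of 5. Myoc was rare: 61 of 3611 cells had a UMI, and 5 cells held 56.7% of its UMIs. Over all members, the ranking was led by Myoc, A2m, Serpina3n, Cd44 and C3. Some genes left out as rarer, picked after their values were seen, had larger ratios than Osmr without ependymal-marker cells. These were C3 (0.644 against 0.00478), Fxyd6 (0.608 against 0.0175), Cd44 (0.847 against 0.0271) and S1pr3 (0.406 against 0.0143). Over all members Fxyd6 was at 0.509 against 0.0169, a larger ratio than that of Cd44. Pooled ratios mix the endings, since 67 of 86 thinned cells of 1_2_2 but 42 of 556 of 1_1_1 had Gfap.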

How the data were processed

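Droplet libraries of aged wild-type brain were analysed from 1 table of raw UMI counts per gene and barcode (20765 genes, 21197 barcodes, 170214406 UMIs), as the authors deposited it. Its values are whole numbers, and the smallest number of genes per barcode is 199. The submitters' processing notes name Cell Ranger 4, Trim Galore, FastQC and bcl2fastq, and the build mm10. How Cell Ranger was set and how libraries were joined is not given in the sources used here. Another 4 deposited tables were not used here.

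Cells were chosen by the rule in the report. The rule, the members and the 36 gene lists were chosen with earlier results of these data known, and the split by ependymal markers was added after seeing the data. UMIs were summed over cells and divided by the summed total. Ratios to other cells were computed for genes with at least 50 UMIs in either set, with a side without a UMI set to 3 UMIs. For such ratios within an ending, other cells under 3 UMIs were set to 3 UMIs. Highest-over-lowest ratios between endings were computed for genes with at least 100 UMIs, with an ending under 3 UMIs set to 3 UMIs. No test across samples was possible, because no label ties the 5 endings to a library, a tissue or a batch. The 5 endings were used only by name. Total UMIs of astrocytes per ending were between 2523254 and 12979242. Thinning drew 2200 UMIs per cell without replacement with a fixed seed. The ratio functions were tested on simulated data. Python 3.11.15, numpy 2.4.6, scipy 1.17.1 and matplotlib 3.10.9 were used.

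Named genes were the rule genes, 9 fixed astrocyte genes, up to 5 members of each list with the highest level, and up to 10 genes with the largest ratio to other cells or between endings, with up to 5 each for the split by Gfap. Unnamed gene models were left out, and some genes that the rule names are not reported here. Slc7a11, Tgfbr2, Grm5, Msmo1, Idi1, Hmgcs1, Insig1, Cd109, Bst2, Fkbp5, Amigo2, Srgn, Fxyd6, S1pr3 and genes of the cells at the rule's edges fall outside this or were picked after their values were seen. Mitochondrial genes took between 5.26% and 7.26% of astrocyte UMIs per ending and ribosomal protein genes between 3.34% and 6.81%.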

Additional observations from a re-analysis of the deposited data

How the results depend on the processing

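Alternatives changed the gene minimum, the number of rule genes, the progenitor and microglial limits, mixed cells, the total and the averaging; leaving out ependymal-marker cells was chosen after seeing the data. The number of astrocytes (3783) was within 1.5 times under 8 of 9 alternatives, and was 2194 without cells holding 3 or more markers of another type. The same setting gave 1303 genes at least 4-fold higher and 3251 lower than other cells, which then held the left-out cells. It gave 3597 genes with a 2-fold range between endings. Set against other cells without microglia, 1009 genes were at least 4-fold higher. The pooled Gfap level (2.01 UMIs per 10000) was 1.69 with at least 6 of 8 genes, 1.43 with no progenitor gene, 1.87 with no microglial limit, 1.67 without mixed cells, 1.51 without ependymal-marker cells, 1.84 as a mean over cells and 2.24 without mitochondrial and ribosomal protein genes. Leaving out 1 ending at a time gave a pooled Gfap level of 1.03 to 2.78, with the lowest value without 1_2_2, between 1739 and 2215 genes at least 4-fold higher, between 1668 and 1827 lower, and between 4360 and 5533 with a 2-fold range. The share of thinned astrocytes with Gfap (13.4%) was 12.2% with at least 6 of 8 genes, 11.9% with no progenitor gene, 12.1% without mixed cells and 11.8% without ependymal-marker cells, was 26.6% without thinning, and was between 10.6% and 15.6% with 1 ending left out. The range between endings without 1_2_2 was 8.01-fold for Gfap, 2.96-fold for Slc7a10 and 3.40-fold for Mfge8. In 1_2_2 only 106 cells remained without ependymal-marker cells, which limits rare genes there, since single cells held most UMIs of some. No paired analysis was possible because the endings carry no label and no result comes from a test.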

Other observations

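Several genes of the secreted-signal list differed in level between the endings; those named here were picked after their values were seen, and all values are UMIs per 10000 without ependymal-marker cells. Vegfa, the vascular growth factor, was at 7.21 UMIs per 10000 in 1_1_1, 5.18 in 1_1_2, 3.94 in 1_2_1, 1.71 in 1_2_2 and 5.49 in 1_3, and the alarmin gene Il33 at 0.810, 1.00, 0.900, 0.230 and 0.936. Over all members Vegfa was at 1.63 in 1_2_1 and 0.446 in 1_2_2 and Il33 at 0.404 and 0.116, so both were lowest in 1_2_2 either way. The enkephalin precursor gene Penk was at 0.479 in 1_1_2, 0.271 in 1_3 and 0.00965 in 1_1_1, with no UMI in 1_2_1 (upper limit of the counting interval 0.0369) or 1_2_2 (0.0606), and was found in 52 of 3611 cells, 5 of which held 53.1% of its UMIs. Thbs1, a thrombospondin of the synapse list, was at 0.772 in 1_1_2, 0.234 in 1_3 and at most 0.0135 in the other endings, and its 479 UMIs in 1_1_2 came from 20 of 1074 cells, 5 of which held 64.1%. Over all members it was at 0.0198 in 1_2_1 and 0.0214 in 1_2_2. Cxcl12, a chemokine gene that endothelium also expresses, was at 2.67 in 1_1_1, 0.434 in 1_1_2, 1.09 in 1_2_1, 0.312 in 1_2_2 and 4.23 in 1_3, beside summed endothelial markers of 10.4, 0.934, 11.7, 0.214 and 13.7; their part in the level was not tested. Over all members Cxcl12 was at 0.523 in 1_2_1 and 0.174 in 1_2_2.

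The level of Top2a in 1_2_2 rested on few cells. All 113 UMIs of Top2a, a gene of dividing cells, came from 2 cells, 105 of them from 1. Of the clock list, 9 of 14 genes had a 2-fold range between endings without ependymal-marker cells, beside 36.5% of all genes, and 5 of 14 over all members, beside 49.5%. Without those cells the list had a median ratio of highest to lowest ending of 2.14. Per3 ranged 3.35-fold, Dbp 2.01-fold and Nr1d1 1.81-fold. Some of the 2-fold ranges rest on few UMIs: in 1_2_2, their lowest ending, Arntl had 8 and Cry1 and Ciart 6 each.

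By share of astrocytes the endings fell apart, with 26.0% in 1_1_1, 25.4% in 1_1_2 and 29.4% in 1_3 beside 5.11% in 1_2_1 and 5.19% in 1_2_2. Gfap without ependymal-marker cells was at 0.585, 0.437 and 1.00 in the first 3 of these and at 2.81 and 29.1 in the other 2. With 5 endings that the labels tie to no group, this is a description of these cells, with no test.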
